A study of Mus musculus with 13 samples.

Results

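The G2 and mitosis genes are 38 transcripts whose proteins carry a cell from the end of DNA synthesis through chromosome segregation to the separation of the daughter cells. They were chosen by symbol from a list of genes of known function, with earlier results of these data known. All 38 were found once in each of the 2 deposited count tables, which have 21420 genes in common. The study sequenced RNA from mouse small intestine after loss of Eed or Ezh2, which encode a core subunit and a catalytic subunit of Polycomb repressive complex 2, the enzyme that methylates lysine 27 of histone H3. It holds 13 libraries in 5 groups. The 3 groups of crypts, 3 libraries each, were wild type (WT), Eed-/- and Ezh2-/- (called Eed KO and Ezh2 KO, for knockout) and came from mice of a mixed C57BL/6-FVB background that received beta-naphthoflavone from 6 weeks of age for 6 weeks. WT organoids (n = 2, strain label FVB) and Eed KO organoids (n = 2, strain label C57BL/6-FVB) were cultures grown from crypts and exposed to the compound for 10 days. Beta-naphthoflavone switches on AhCre, a Cre recombinase under the Cyp1a1 promoter, which deletes floxed alleles in the intestinal epithelium. The controls received the compound too, and the labels name AhCre without a floxed allele for the WT organoids. Libraries are named by sequencing run, 385 or 440, and number. Run 385 held 2 WT crypts, 2 Eed KO crypts and all organoids, and run 440 held 1 WT crypt, 1 Eed KO crypt and all Ezh2 KO crypts. In the sample descriptions, the WT crypt of run 440 is also named AhCre without a floxed allele, and those of run 385 only WT. No label ties the libraries to different mice or cultures, and the p-values then cover only the spread among these libraries, which may be technical.

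In a dividing cell, cyclin A and cyclin B bind the kinase CDK1 and drive entry into mitosis. The Polo and Aurora kinases then build the spindle, the kinetochore ties chromosomes to it, and a checkpoint holds back the anaphase promoting complex until every chromosome is attached. That complex marks cyclin B for destruction, and the cell then splits. Most of these genes are transcribed late in the cycle, when the MuvB core works with B-Myb and FOXM1, and they are repressed in resting cells when MuvB joins the DREAM complex. In the intestine they mark the fast dividing progenitors of the crypt, while villus cells and Paneth cells do not divide.

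The promoters of genes in this set are known for a cell cycle homology region with the core TTTGAA, bound by MuvB, and for CCAAT boxes, bound by NF-Y. RefSeq promoters (GRCm38.p6, 250 bases before to 50 after the start site) were at hand for 33 of the 38 genes, as 35 promoters. Aurkb, Ccna2, Foxm1, Kif20a and Tpx2 had no entry. TTTGAA, read on both strands, was in 27 of the 35 promoters (77.143%) and in 17.893% of all 32851 promoters of the same length. In the first 50 bases from the start site it began in 18 of 35 (51.429%) against 2.25% of all promoters. CCAAT on either strand was also in 27 of 35 (77.143%, against 37.408% of all), and it began in the 100 bases before the start site in 25 of 35 (71.429% against 19.293%). The variant TTTAAA, which reads the same on both strands, was in 9 of 35 (25.714% against 13.162%), and none of the 3 motifs contains another. A match of letters is a description of the sequence and not a binding site. The promoters of Cdk1 (chr10:69352863-69353162, minus strand) and Plk1 (chr7:122159185-122159484, plus strand) are shown because they come first among the cyclin and kinase genes. Those of Ccnb1 (chr13:100786437-100786736, minus strand) and Top2a (chr11:99024140-99024439, minus strand) were added after the values were seen, as a cyclin that has the variant only and as the gene with the largest fall. Capitals mark the 3 motifs on either strand.
Cdk1: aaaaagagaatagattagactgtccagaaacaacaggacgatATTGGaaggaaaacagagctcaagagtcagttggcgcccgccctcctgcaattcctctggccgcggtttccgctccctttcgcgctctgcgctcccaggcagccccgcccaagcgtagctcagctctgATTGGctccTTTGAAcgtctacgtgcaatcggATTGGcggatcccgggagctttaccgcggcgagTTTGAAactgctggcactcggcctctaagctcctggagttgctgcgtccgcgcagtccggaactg
Plk1: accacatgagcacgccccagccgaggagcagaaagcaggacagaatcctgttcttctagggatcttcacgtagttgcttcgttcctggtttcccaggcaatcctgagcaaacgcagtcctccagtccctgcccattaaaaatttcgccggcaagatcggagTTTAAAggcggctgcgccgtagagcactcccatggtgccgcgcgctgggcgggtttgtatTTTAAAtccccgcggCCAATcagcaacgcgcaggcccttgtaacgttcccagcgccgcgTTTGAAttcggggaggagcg
Ccnb1: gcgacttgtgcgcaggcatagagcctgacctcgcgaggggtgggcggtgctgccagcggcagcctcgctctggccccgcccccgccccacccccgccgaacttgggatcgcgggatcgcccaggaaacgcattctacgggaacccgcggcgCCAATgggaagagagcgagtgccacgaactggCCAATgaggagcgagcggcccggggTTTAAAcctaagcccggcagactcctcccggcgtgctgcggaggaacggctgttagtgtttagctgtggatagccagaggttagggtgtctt
Top2a: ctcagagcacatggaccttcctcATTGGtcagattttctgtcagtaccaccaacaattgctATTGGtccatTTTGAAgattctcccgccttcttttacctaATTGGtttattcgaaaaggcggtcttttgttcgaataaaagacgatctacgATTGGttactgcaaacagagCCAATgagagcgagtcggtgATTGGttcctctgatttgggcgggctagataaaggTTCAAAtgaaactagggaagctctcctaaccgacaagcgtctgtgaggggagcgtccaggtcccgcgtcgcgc
Counted from the start site at 1, with negative positions before it, TTTGAA began at -71 and -15 in Cdk1 and at 31 in Plk1. The CCAAT boxes of Cdk1 began at -208, -80 and -48, and that of Plk1 at -14.

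Depth ran from 11421666 to 18300644 counts per library. Eed transcript, the check of the labels, stood at 15.9, 25.0 and 16.3 CPM (counts scaled to a common library size, with TMM factors) in Eed KO crypts 385_1, 385_2 and 440_1, and at 53.1, 60.3 and 50.1 in the WT crypts of the same names. Ezh2 transcript stood at 21.8, 17.7 and 18.0 CPM in Ezh2 KO crypts 440_1, 440_2 and 440_3 and at 90.8, 95.3 and 72.2 in WT. Mitochondrially encoded genes took 3.71% of counts in Eed KO 440_1 and 16.5% and 18.0% in the other Eed KO crypts, against 8.65% to 14.5% in WT crypts. Markers of crypt epithelium were present in every crypt library: 5 epithelial markers summed to 2833 to 5608 CPM in Eed KO and 4712 to 5862 in WT crypts, and 4 Paneth cell markers to 9199 to 14811 and 59164 to 75709. In Ezh2 KO crypts these sums were 5623 to 6375 and 21592 to 39707, so the Paneth sum was below WT there too. The 4 stem cell markers summed to 621 to 1024 CPM in Eed KO, 3713 to 4238 in Ezh2 KO and 4060 to 4308 in WT crypts. A sum is carried by its most abundant genes. In the edgeR fit below of Eed KO against WT crypts, 2 of these 4 were called lower, against 10.6% of all genes. Their log2 fold changes ran from -3.21 to 0.10. The 8 markers of villus enterocytes, cells that no longer divide, summed to 449, 427 and 3469 CPM in Eed KO 385_1, 385_2 and 440_1, 3029 to 6114 in Ezh2 KO and 823 to 2173 in WT crypts. In the same fit of Eed KO against WT crypts all 8 were negative (median log2 fold change -1.18), and 0 were called. The 7 immune markers summed to 220, 295 and 69.3 CPM in Eed KO 385_1, 385_2 and 440_1 and to 93.1 to 121 in WT crypts, and in organoids to at most 3.46, with 3 or 4 of the 7 at 0. Their sum in Ezh2 KO crypts was 42.9 to 82.5 CPM. Connective tissue and vessel markers (7 genes) summed to 34.8 to 71.7 CPM in Eed KO and 13.3 to 287 in WT crypts, and markers of glia and neurons (4) or red cells (3) to at most 5.92 in any library. The part of these cell types in the results below was not tested. By Xist and the Y-linked Ddx3y, the WT crypts and the Eed KO organoids of run 385 had a male pattern, with 33.1 to 54.1 Ddx3y CPM on total counts. The female pattern, with Xist from 325 CPM upward, was that of Eed KO crypts and WT organoids of run 385 and of each of the 5 crypts of run 440. Sex and genotype therefore cannot be told apart within run 385.

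The first comparison asked what loss of Eed did to these genes in the crypt, and they fell together. Of the 38 genes, 36 were lower in Eed KO than in WT crypts and 0 were higher (edgeR quasi-likelihood test, Benjamini-Hochberg adjusted p under 0.05), where 10.6% of all 14406 genes tested were called lower and 13.4% higher. The median log2 fold change was -1.44, against -0.04 over all genes tested, with a range from -2.05 to -0.84. In 37 of the 38, every Eed KO library was below every WT library, as for 13.3% of all genes. The exception was Cenpf. The 2 genes not called were Cenpe (-1.58 ± 0.50 SE, adjusted p = 0.0521) and Cenpf (-1.53 ± 0.53, adjusted p = 0.0685), both of which were called within run 385 alone. In RNA of whole crypts, fewer dividing cells and less mitotic RNA per dividing cell cannot be told apart. The fall was present in both runs. Within run 385 (2 Eed KO against 2 WT) all 38 were called lower with a median of -1.48, where 11.9% of all genes in that fit were lower. In run 440, 1 Eed KO against 1 WT library with the spread pooled with the Ezh2 KO libraries, all 38 were negative and 19 were called (2.75% of all genes in that fit), with a median of -1.23. With libraries of the same run and number paired as a block, 33 were called (3.93% of 13802 genes), and Plk1, Bub1 and Spc25 lost their call.

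**Figure D1:**
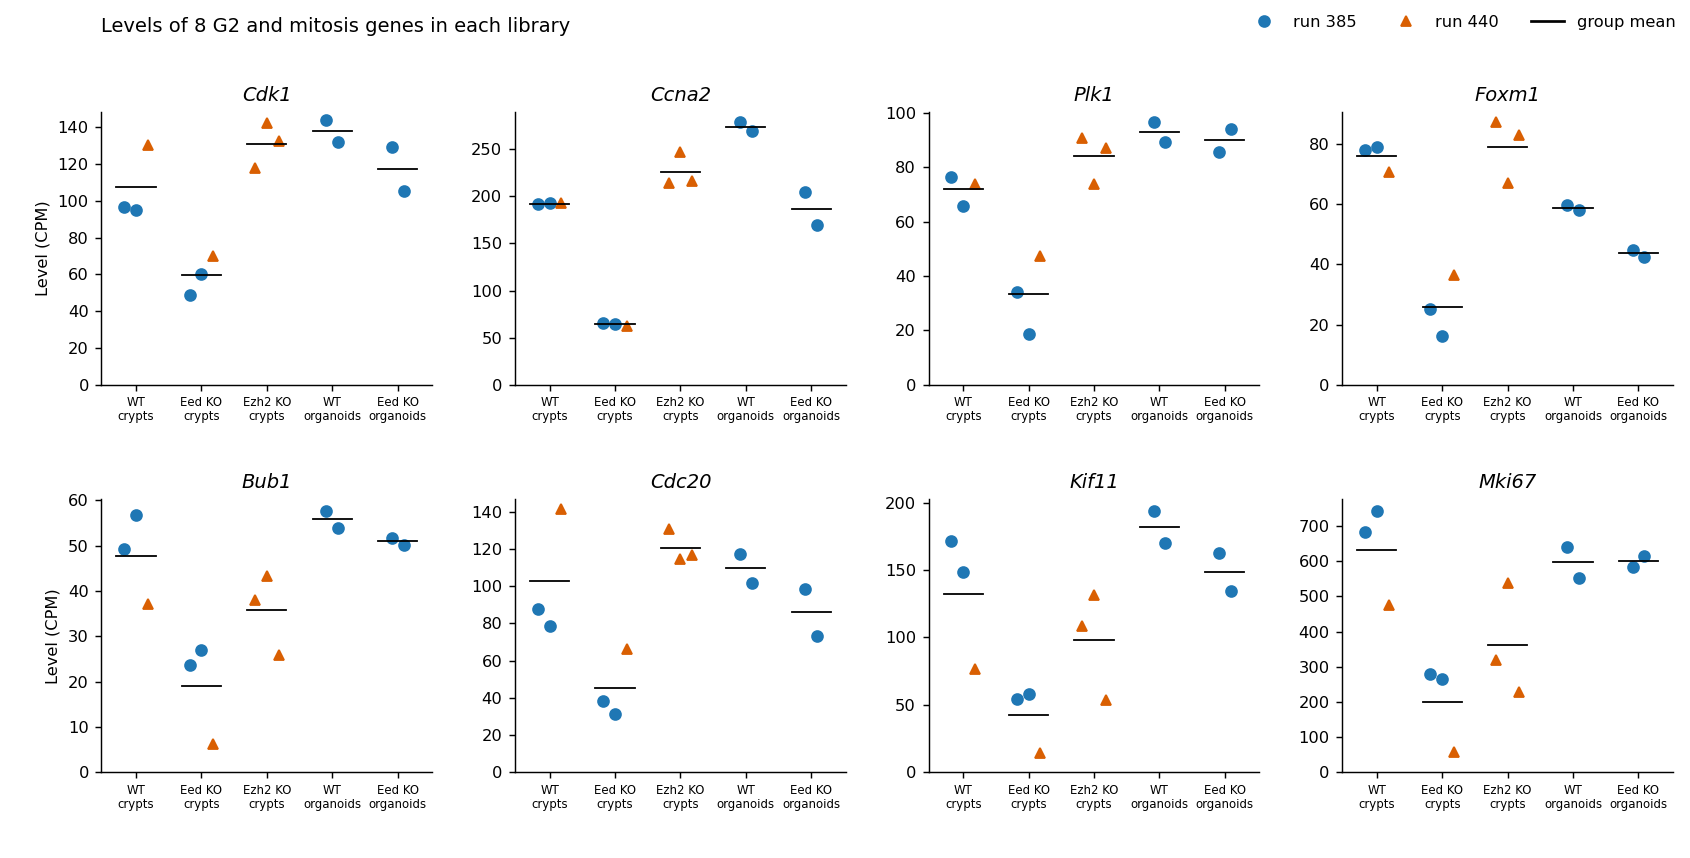
Level of 8 of the 38 genes in CPM (vertical axis from 0) in each library, by group along the horizontal axis. Circles are run 385, triangles run 440 and bars group means. For all 8, the 3 Eed KO crypts lie below the 3 WT crypts, and Bub1, Kif11 and Mki67 are lowest in the Eed KO crypt of run 440.

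Among the cyclins and their kinase, the 4 genes were all lower. Cdk1 (ENSMUSG00000019942, chromosome 10, 69336635 to 69352938, GRCm38), the kinase that triggers mitosis, stood at 96.5, 95.1 and 130.4 CPM in WT 385_1, 385_2 and 440_1 and at 48.8, 60.0 and 69.9 in the Eed KO libraries of the same names, the order used below. Its log2 fold change of -0.84 ± 0.14 (adjusted p = 0.00319) was the smallest fall of the 38, yet its groups did not overlap. Ccna2, the cyclin A of S phase and G2, was at 192, 193 and 193 CPM in WT and 65.3, 64.6 and 62.4 in Eed KO crypts. Its libraries lay closer together than those of the other 3 genes, and it fell by 1.58 ± 0.13 (adjusted p = 0.00016). The B cyclins, which partner CDK1 in mitosis, fell by similar amounts, Ccnb1 by 1.42 and Ccnb2 by 1.55 on the log2 scale. Ccnb1 and Ccnb2 have annotated pseudogenes (Ccnb1-ps, Ccnb2-ps), as has Kif4, and reads shared with such copies can be lost or split in counting.

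Among the mitotic kinases and their transcription factor, all 4 genes were lower. Plk1 (ENSMUSG00000030867, chromosome 7, 122159437 to 122169875), the Polo kinase of spindle assembly and mitotic entry, was at 76.6, 65.7 and 73.7 CPM in WT and 34.0, 18.8 and 47.4 in Eed KO crypts. The Eed KO libraries spread more widely than the WT ones, with 385_2 lowest, and the log2 fold change was -1.16 ± 0.25 (adjusted p = 0.0107). Foxm1, which switches on late cell cycle genes, was at 78.0, 79.2 and 70.9 CPM in WT and 25.1, 16.1 and 36.4 in Eed KO. It had the largest fall of the 4, -1.60 ± 0.25 (adjusted p = 0.00228), with Eed KO 440_1 the highest of its group. Aurka, the kinase of centrosomes and spindle poles, was at -1.33, and Melk, a kinase of dividing progenitors, at -1.50 on the log2 fold change scale.

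The chromosomal passenger complex corrects faulty attachments between chromosomes and spindle, and its 3 genes fell by similar amounts. Aurkb (ENSMUSG00000020897, chromosome 11, 69045647 to 69051664), its kinase, was at 79.6, 67.2 and 66.0 CPM in WT and 26.7, 19.5 and 36.5 in Eed KO crypts, a log2 fold change of -1.39 ± 0.20 (adjusted p = 0.00175). Birc5, which encodes survivin, was at 77.3, 93.0 and 118 CPM in WT and 26.9, 28.3 and 42.1 in Eed KO. In both groups its run 440 library was the highest, and the fold change was -1.57 ± 0.13 (adjusted p = 0.000183). Cdca8, which encodes borealin, was at 68.7, 70.0 and 72.6 CPM in WT and 28.4, 18.7 and 40.4 in Eed KO, with a fold change of -1.31 ± 0.21. For these 3, the Eed KO and WT libraries were well apart.

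The spindle checkpoint delays anaphase until all kinetochores are attached, and its 4 genes were lower. Bub1 (ENSMUSG00000027379, chromosome 2, 127801122 to 127831865), its kinase, was at 49.3, 56.7 and 37.1 CPM in WT and 23.7, 27.1 and 6.29 in Eed KO crypts. The level in Eed KO 440_1 was far below that of the other Eed KO libraries, and the fold change was -1.53 ± 0.32 (adjusted p = 0.00917). Mad2l1, which encodes the MAD2 inhibitor of CDC20, was at 71.9, 73.4 and 64.0 CPM in WT and 32.6, 41.6 and 26.8 in Eed KO and had the smallest fall of the 4, -1.06 ± 0.16 (adjusted p = 0.0023). Bub1b, which encodes BUBR1, was at -1.40 and the kinase gene Ttk, which encodes MPS1, at -1.44 on the same scale.

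Centromere and kinetochore genes include the histone of centromeres, the NDC80 complex that grips microtubules, and large linker proteins, and 4 of 6 were called. Cenpa (ENSMUSG00000029177, chromosome 5, 30666777 to 30674827), the centromeric histone H3 variant, was at 53.9, 65.6 and 84.3 CPM in WT and 19.7, 25.2 and 30.0 in Eed KO crypts, a fold change of -1.43 ± 0.16 (adjusted p = 0.000516). Cenpe, a kinetochore motor, was at 61.8, 80.2 and 54.2 CPM in WT and 34.5, 44.5 and 5.58 in Eed KO. Its Eed KO 440_1 value was the lowest of all 13 libraries, and its 3 Eed KO libraries spread widely. Cenpf had the same order, with 45.6, 66.1 and 6.58 CPM in Eed KO against 87.6, 106 and 62.5 in WT crypts. Within the NDC80 complex, Spc25 fell least: it was at 31.3, 29.2 and 21.1 CPM in WT and 15.5, 21.1 and 9.11 in Eed KO, -0.88 ± 0.20 (adjusted p = 0.0124), and its highest Eed KO library reached the lowest WT library to within rounding. Its partners Ndc80 and Nuf2 were at -1.26 and -1.53 on the log2 fold change scale.

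Partners of the anaphase promoting complex, the ubiquitin ligase that ends mitosis, were all lower. Cdc20 (ENSMUSG00000006398, chromosome 4, 118432901 to 118437352), its mitotic activator, was at 87.8, 78.7 and 141 CPM in WT and 38.2, 31.6 and 66.0 in Eed KO crypts. The run 440 library was the highest in both groups, and the fold change was -1.20 ± 0.14 (adjusted p = 0.000619). Ube2c, the enzyme that hands ubiquitin to the complex, was at 115, 106 and 87.8 CPM in WT and 43.2, 37.7 and 54.5 in Eed KO, with -1.19 ± 0.18 (adjusted p = 0.00179). Cdca3, an adaptor that directs WEE1 to degradation before mitosis, was at 123, 129 and 122 CPM in WT and 35.0, 42.0 and 71.5 in Eed KO, the largest fall of the 3 at -1.39 ± 0.20 (adjusted p = 0.00161).

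Spindle motors and microtubule proteins had some of the largest falls, and all 6 were called. Kif11 (ENSMUSG00000012443, chromosome 19, 37376403 to 37421859), the motor that pushes spindle poles apart, was at 172, 149 and 76.9 CPM in WT and 54.2, 58.0 and 14.2 in Eed KO crypts. Run 440 was lowest in both groups, and the fold change was -1.81 ± 0.33 (adjusted p = 0.00507). Kif4, a chromosome-bound motor encoded on the X chromosome, was at 79.6, 69.3 and 75.4 CPM in WT and 22.9, 21.4 and 13.7 in Eed KO, -1.98 ± 0.25 (adjusted p = 0.000942). Tpx2, which activates Aurora A on the spindle, was at 96.1, 91.6 and 83.2 CPM in WT and 43.0, 34.1 and 33.7 in Eed KO and fell least, -1.29 ± 0.13 (adjusted p = 0.000405). The microtubule depolymerase Kif2c was at -1.44, the bundling protein Nusap1 at -1.62 and the hyaluronan-binding spindle protein Hmmr at -1.53.

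The cytokinesis genes, which place and close the cleavage furrow, were lower in 6 of 6 cases. Anln (ENSMUSG00000036777, chromosome 9, 22331214 to 22389206), the anillin scaffold of the contractile ring, was at 80.7, 82.0 and 65.7 CPM in WT and 34.7, 26.8 and 14.4 in Eed KO crypts, with the largest fall of the 6 at -1.66 ± 0.23 (adjusted p = 0.00125). Kif23, a motor of the centralspindlin complex, was at 107, 115 and 83.1 CPM in WT and 69.0, 58.7 and 31.8 in Eed KO and fell least, -0.99 ± 0.17 (adjusted p = 0.00394). Its centralspindlin partner Racgap1 was at -1.38 and their target Ect2, which activates RhoA, at -1.57. Prc1, which bundles the central spindle, was at -1.65 and its motor partner Kif20a at -1.08.

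The 2 genes of chromosome structure had the largest median fall of the 9 roles (-1.99). Top2a (ENSMUSG00000020914, chromosome 11, 98992943 to 99024189), the topoisomerase that untangles sister chromatids, was at 719, 669 and 498 CPM in WT and 231, 187 and 75.7 in Eed KO crypts. The fold change of -2.05 ± 0.28 (adjusted p = 0.00122) was the largest of the 38. Mki67, which encodes the Ki-67 coat of mitotic chromosomes and the stain most used for dividing crypt cells, was at 682, 742 and 475 CPM in WT and 279, 264 and 56.5 in Eed KO. Its Eed KO 440_1 library stood far below the other Eed KO libraries, while in run 385 alone its fold change was -1.42 (adjusted p = 0.00134).

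**Figure D2:**
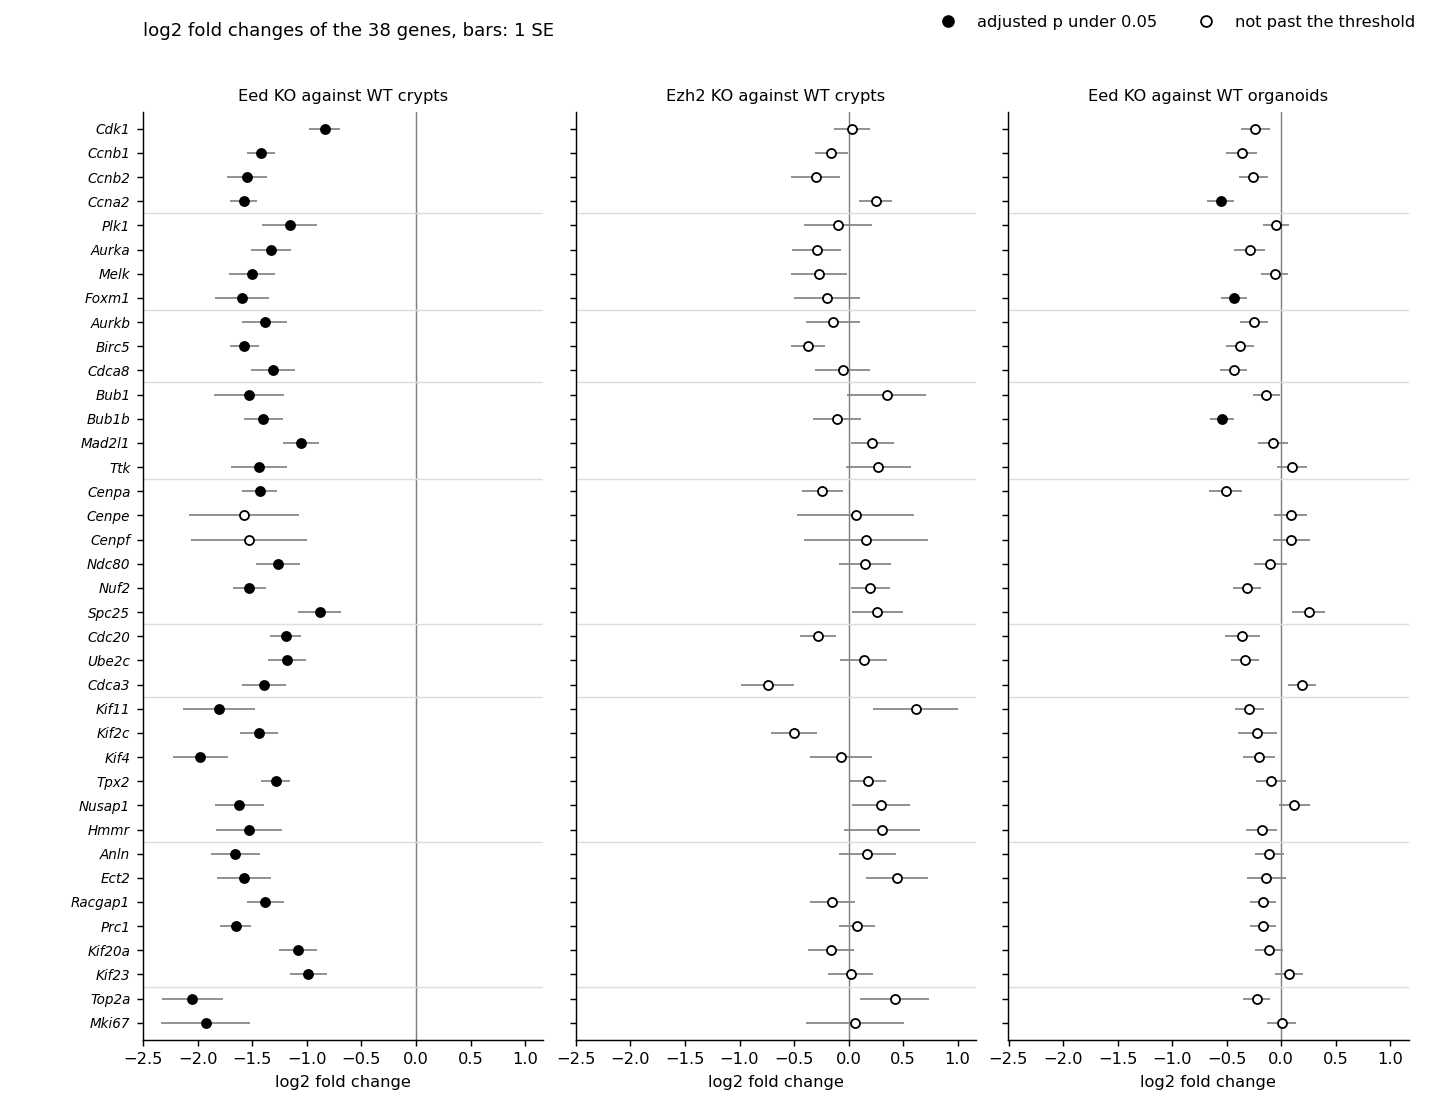
The log2 fold change of each of the 38 genes (points, bars 1 SE) in Eed KO against WT crypts, Ezh2 KO against WT crypts and Eed KO against WT organoids, with grey lines between roles. Filled points passed adjusted p 0.05: 36, 0 and 3 genes. The first panel lies wholly below 0, from -2.05 to -0.84.

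Per kilobase of transcript, Top2a had the highest level of the 38 in WT crypts, 120.4 ± 22.2 CPM per kilobase (SD, n = 3), followed by Ube2c at 106 ± 14.1 and Birc5 at 102 ± 21.8, which lie within one another's spread. The lowest were Cenpe at 8.27 ± 1.69 and Cenpf at 7.67 ± 1.97. The genes rose and fell together over the libraries: the correlation of log2 CPM between 2 of them over the 13 libraries had a median of 0.85 over 703 pairs, with a range from 0.13 to 0.995. Much of this lies in group differences, since after group and run were taken out the median was 0.18. The range was then from -0.87 to 0.99, so some pairs moved in opposite directions within groups. These coefficients are descriptions, as all genes share the same libraries. Mki67 tracked Bub1 (0.98) and Cenpe (0.97) far more closely than Foxm1 (0.38) or Cdc20 (0.33). In Eed KO 440_1 the difference to the WT crypt of the same run, in log2 CPM, was -3.07 for Mki67, -2.53 for Bub1 and -3.25 for Cenpe. For Foxm1 it was -0.96 and for Cdc20 -1.10. The part of gene length and GC content in these coefficients was not tested.

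The Eed KO library of run 440 differed from the other 2 along gene length over the 38 genes. In Eed KO 440_1 the difference to the WT crypt of the same run, in log2 CPM, averaged -1.95 over the 19 genes with the longer coding sequences and -1.18 over the other 19. Across the 38 genes it correlated with log2 coding length at r = -0.68 (rho = -0.59) and with transcript GC content at r = 0.65. Mki67, with 9531 coding bases, was at -3.07, Cenpf (8991) at -3.22 and Cenpe (7413) at -3.25, while Ube2c (537) was at -0.69. Plk1 (1809) was at -0.64. Ezh2 KO 440_3 also fell with length, over a smaller range, with -0.40 over the longer and -0.03 over the shorter genes and r = -0.64. Eed KO 385_1 and 385_2, by contrast, averaged -1.30 and -1.41 over the longer and -1.41 and -1.46 over the shorter genes, with r with length of 0.22 and 0.06. With GC content, however, the difference in Eed KO 385_2 correlated at r = -0.61, opposite in sign to Eed KO 440_1, and that in 385_1 at r = -0.19. Over all genes tested, split at the same 1905 bases, the medians for longer and shorter genes were -0.12 and -0.07 in Eed KO 440_1, -0.16 and 0.15 in 385_2, and -0.01 and 0.01 in 385_1. The wider gap over all genes was thus that of 385_2 and not that of 440_1. With the trend of level on length and GC content taken out of each library, 36 of the 38 genes were still called lower with a median of -1.32, and without Eed KO 440_1 36 were called with a median of -1.52. Of all genes, 14.8% and 13.3% were called lower in these fits. Taking out the length and GC trend was chosen after the data were seen. The part of RNA quality in the length slope was not tested.

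**Figure D3:**
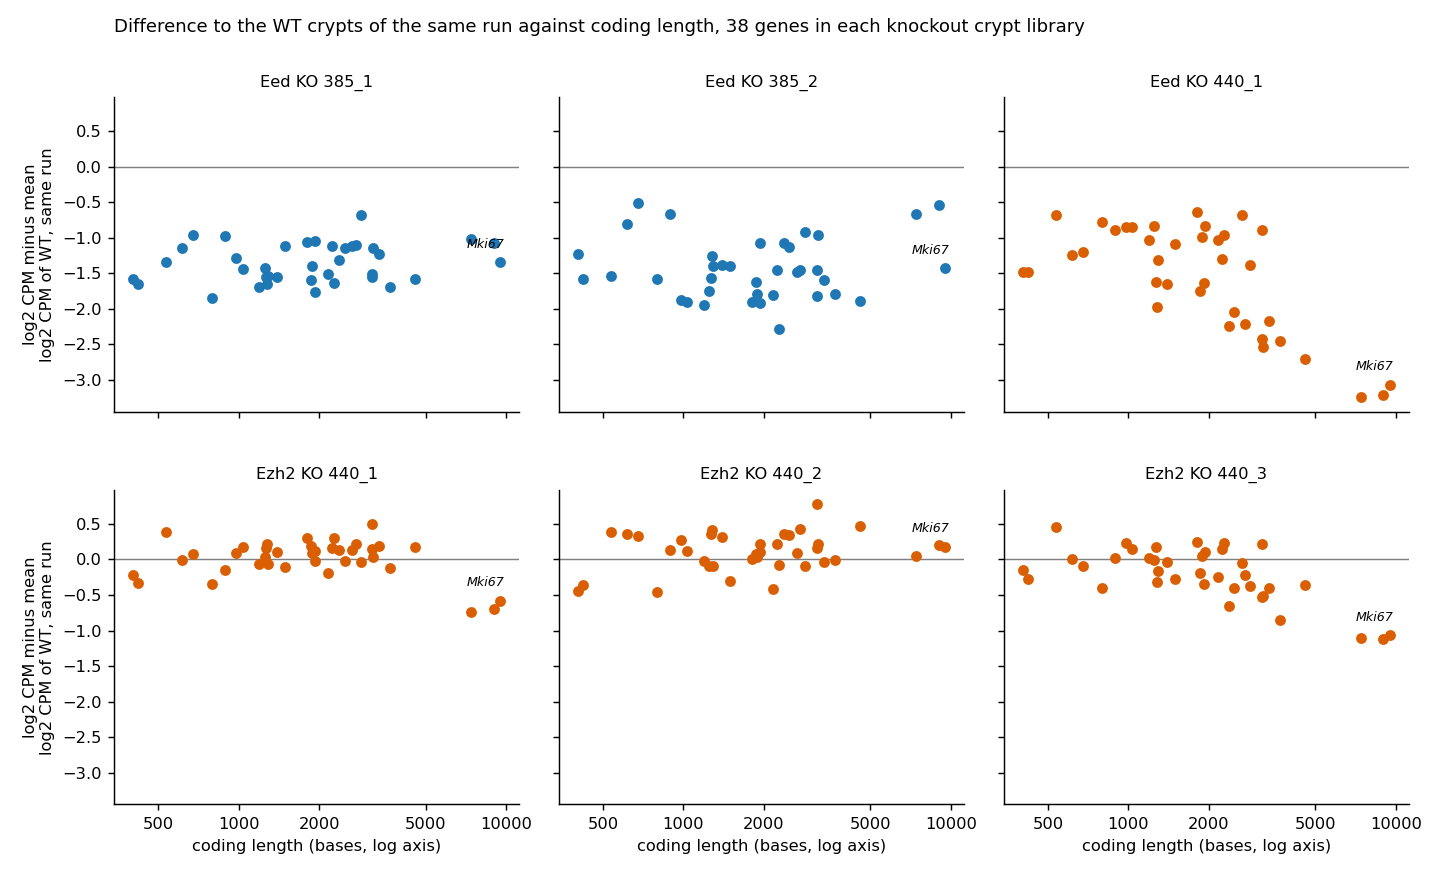
Difference in log2 CPM between each knockout crypt library and the mean of the WT crypts of its run (vertical axis) against coding length (bases, log axis) for the 38 genes. In Eed KO 440_1 the points fall with length (r = -0.68), with Mki67 at -3.07, and in Eed KO 385_1 and 385_2 they do not (r = 0.22 and 0.06).

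Genes that work beside the 38 were described from lists of the same pathway. Over all genes tested in Eed KO against WT crypts, 10.6% were called lower and 13.4% higher. In Eed KO against WT crypts, 28 of 37 other kinetochore genes were called lower and 0 higher (median -1.06), among them Knl1 (-1.77 ± 0.43), the checkpoint protein gene Kntc1 (-1.63 ± 0.22) and Cenpi (-1.53 ± 0.22). Of 35 other spindle and cytokinesis genes 30 were lower (median -1.34), with the motor Kif15 at -2.01 ± 0.31, the spindle pole protein Aspm at -1.90 ± 0.35 and the citron kinase Cit at -1.86 ± 0.31. Of 19 condensin and cohesin genes 12 were lower (median -1.09), led by the separase gene Espl1 (-1.59 ± 0.29), its inhibitor Pttg1 (-1.53 ± 0.19) and the condensin subunit Smc4 (-1.53 ± 0.38). Of 17 genes of mitotic entry and G2 13 were lower (median -0.83), with Cdc25c, the phosphatase that activates CDK1, at -1.69 ± 0.18, Mastl at -1.67 ± 0.38 and the histone kinase Haspin at -1.24 ± 0.22. No gene of these 4 lists was called higher.

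The remaining lists of cell cycle genes ran from 4 of 17 to 30 of 38 genes lower. Of all genes tested, 10.6% were lower and 13.4% higher. Of the 17 genes of the anaphase promoting complex and its regulators 4 were lower (median -0.28), with the inhibitor Fbxo5 at -1.29 ± 0.14, Anapc5 at -0.82 ± 0.14 and Ube2s at -0.59 ± 0.15. In the MuvB and DREAM list 6 of 17 were lower (median -0.32), with Rbl1, which encodes p107, at -1.39 ± 0.20, Mybl2, which encodes B-Myb, at -1.31 ± 0.24 and Tfdp2 at -1.29 ± 0.16. S phase genes, which copy the DNA before G2, were lower in 30 of 38 cases with a median of -0.90, with thymidine kinase Tk1 at -1.66 ± 0.19, the polymerase Pole at -1.53 ± 0.25 and Gins1 at -1.36 ± 0.18. Of 13 G1 genes 5 were lower and 3 higher (median -0.22), with the D cyclins Ccnd2 (2.09 ± 0.28) and Ccnd3 (1.26 ± 0.18) higher and Rb1 (-1.17 ± 0.27) lower.

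Of 12 brakes of CDK1, 4 were lower and 4 higher, where 10.6% of all genes tested were lower and 13.4% higher. The inhibitory kinase Wee1 (-1.29 ± 0.19), its relative Pkmyt1 (-1.21 ± 0.22), the phosphatase gene Cdkn3 (-1.17 ± 0.26) and the checkpoint kinase Chek1 (-1.13 ± 0.34) were lower with the mitotic genes. Cdkn1a, which encodes the CDK inhibitor p21, was at 38.9, 34.1 and 43.8 CPM in WT and 294, 196 and 375 in Eed KO crypts (2.87 ± 0.23, adjusted p = 0.00016). The stress gene Gadd45b was at 5.70, 4.95 and 5.39 CPM in WT and 16.2, 22.5 and 14.7 in Eed KO (1.72 ± 0.23) and the antiproliferative Btg2 at 76.3, 85.3 and 69.9 in WT and 209, 183 and 201 in Eed KO (1.37 ± 0.16). In all 3, every Eed KO library was above every WT library, as for 17.3% of all genes tested. Rprm, a p53 target that holds cells in G2, was also called higher (adjusted p = 0.00627), with 54 counts over the 3 Eed KO crypts against 2 over the 3 WT crypts, a ratio of 29.2 (95% exact counting interval 7.7 to 247.0, counting error only). Gadd45a, Gadd45g, Sfn and Chek2 were not called. In Ezh2 KO against WT crypts no gene of the 9 related lists was called by edgeR, with 0 to 3 genes a list at an unadjusted p under 0.05. Of all 14406 genes tested, 1179 were at that p. In organoids 0 of 37 other kinetochore, 0 of 19 condensin and cohesin and 0 of 38 S phase genes were called by edgeR (3, 7 and 3 at an unadjusted p under 0.05). Of all 12958 genes tested in organoids, 3918 were at that p. There 5 of 35 other spindle and cytokinesis genes were lower and 2 higher, in the MuvB and DREAM list 2 of 17 were lower and 1 higher, and of 13 G1 genes 2 were lower and 2 higher. Of the 17 genes of mitotic entry and G2, Gtse1, named after its value was seen, was higher (1.00, adjusted p = 0.0051), and of 11 brakes tested Cdkn1a (0.84, adjusted p = 0.0152) and Btg2 (1.09, adjusted p = 0.00658) were higher. Over all genes tested in organoids 4.63% were lower and 13.5% higher.

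**Figure D4:**
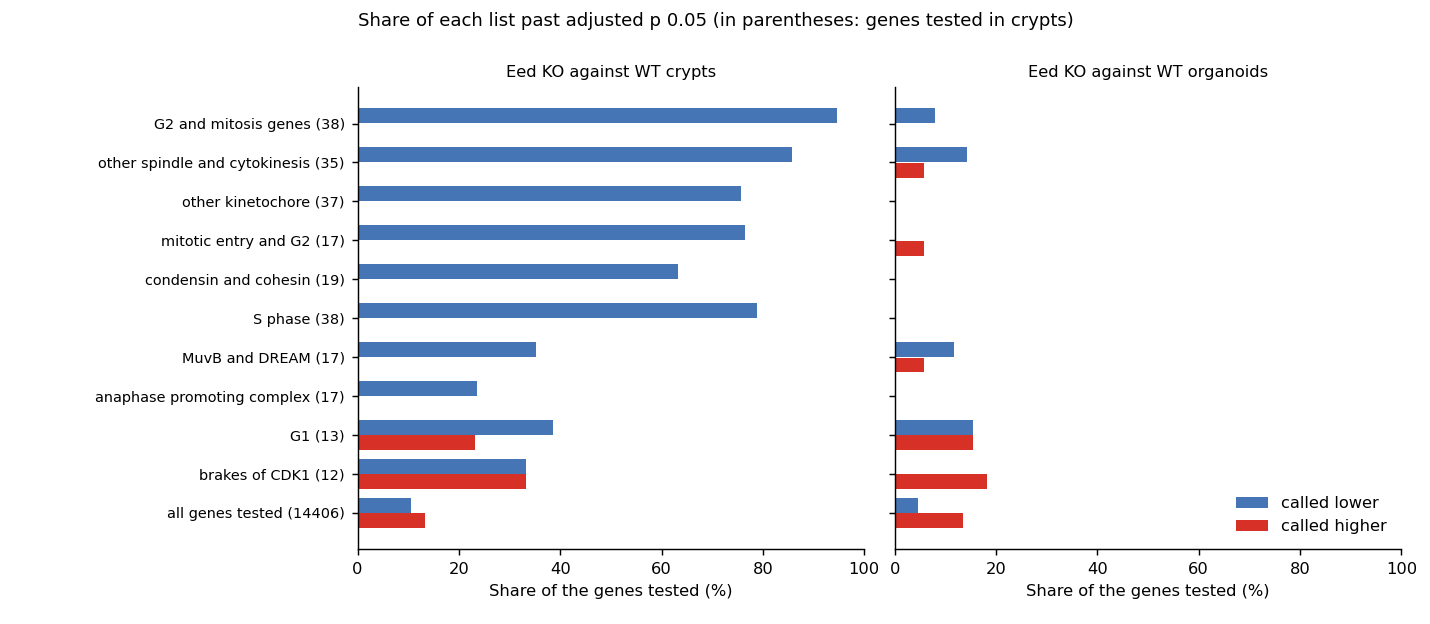
Share of the genes tested in each list that was called lower (blue) or higher (red) at adjusted p under 0.05, in Eed KO against WT crypts (left) and organoids (right), from 0 to 100%. In crypts 36 of 38 G2 and mitosis genes were lower against 10.6% of all genes tested, and in organoids 3 of 38 against 4.63%.

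The second comparison asked whether loss of Ezh2 acted on these genes, and no change was detectable in these libraries. Of the 38 genes, 0 were called in either direction in Ezh2 KO against WT crypts by edgeR, where 0.0208% of all 14406 genes tested were called lower and 0% higher. DESeq2 called 0 of the 38 as well, with 0.236% of all genes lower. By edgeR 3 had an unadjusted p under 0.05, the passenger gene Birc5, the depolymerase Kif2c and Cdca3, as had 1179 of all 14406 genes. The median log2 fold change was 0.05, against 0.01 over all genes tested, and 17 of 38 were negative. The comparison uses the same WT crypts as that of Eed KO. Estimates ran from -0.74 ± 0.24 (SE) for Cdca3 to 0.62 ± 0.39 for Kif11. The fit takes the run difference from all crypts, so a fold change here can differ in sign from the plain difference to WT 440_1. WT 440_1 is the only WT crypt of the run that holds the Ezh2 KO libraries. Without it, Cdca3 was called lower, as were 1.76% of all genes in that fit. There 17 of the 38 had an unadjusted p under 0.05, a share not counted over all genes in that fit.

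By library, Cdk1 was at 118, 142 and 132 CPM in Ezh2 KO 440_1, 440_2 and 440_3, beside 130.4 in WT 440_1. Ccna2 was at 215, 247 and 217 beside 193, with all 3 Ezh2 KO libraries above that WT library. Of the kinases, Plk1 was at 91.0, 74.0 and 87.3 beside 73.7. Foxm1, the transcription factor, was at 87.4, 67.1 and 83.2 beside 70.9 CPM, on both sides of WT. In the passenger complex, Aurkb was at 74.3, 71.7 and 73.3 beside 66.0, Birc5 at 93.6, 92.5 and 97.2 beside 118 and Cdca8 at 77.1, 87.7 and 85.2 beside 72.6. Only Birc5 of these 3 had all Ezh2 KO libraries below the WT crypt of the run. Such orders against WT 440_1 alone were not counted over all genes. Against all WT crypts, every Ezh2 KO library was below in 3 of the 38 genes and above in 4. The shares over all genes tested were 9.43% and 10.6%. The checkpoint genes Bub1 and Mad2l1 were at 38.1, 43.2 and 25.9 and at 63.7, 82.3 and 64.3 CPM in the 3 libraries, beside 37.1 and 64.0. Both include WT 440_1 within their range.

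At the kinetochore, Cenpa was at 72.7, 62.0 and 75.9 CPM beside 84.3 in WT 440_1, and Cenpe at 32.5, 55.8 and 25.1 beside 54.2. Spc25 of the NDC80 complex was at 22.3, 26.7 and 19.7 beside 21.1. Cenpe varied most of the 3, with its low value in Ezh2 KO 440_3. The partners of the anaphase promoting complex differed among themselves: Cdc20 was at 131, 115 and 117 beside 141, Ube2c at 115, 115 and 121 beside 87.8 and Cdca3 at 95.9, 89.5 and 93.1 beside 122. Ube2c was above the WT library in all 3, and Cdc20 and Cdca3 below it. Among the motors, Kif11 was at 108, 132 and 53.4 beside 76.9, Kif4 at 69.5, 75.0 and 41.7 beside 75.4 and Tpx2 at 93.0, 96.6 and 92.0 beside 83.2. The cytokinesis genes Anln and Kif23 were at 75.1, 64.3 and 49.5 and at 81.1, 77.9 and 63.9 CPM, beside 65.7 and 83.1. Top2a was at 561, 690.1 and 388 beside 498 and Mki67 at 318, 537 and 228 beside 475. Ezh2 KO 440_3 was the lowest of its group in all 7 genes named here for motors, cytokinesis and chromosome structure.

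Set directly against Ezh2 KO crypts, Eed KO crypts had 35 of the 38 genes lower and 0 higher, where 8.05% of all genes tested were called lower and 12% higher. The median log2 fold change was -1.31, and the comparison shares its Eed KO libraries with that against WT. The largest differences were in Top2a (-2.48 ± 0.36, adjusted p = 0.00279), Kif11 (-2.42 ± 0.44, adjusted p = 0.00682) and the RhoA activator Ect2 (-2.02 ± 0.33, adjusted p = 0.00408). Not called were Cenpe (-1.65 ± 0.67), Cenpf (-1.69 ± 0.71) and Cdca3 (-0.65 ± 0.24, adjusted p = 0.0853). The only run that holds both genotypes is 440, with 1 Eed KO library. Within it all 38 genes were negative, with a median of -1.25.

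Organoids are epithelium without the tissue around the crypt, and few of the genes passed the test there. Of the 38 genes, 3 were called lower in Eed KO against WT organoids and 0 higher, where 4.63% of all 12958 genes tested were called lower and 13.5% higher. The 3 were Ccna2 (-0.56 ± 0.13, adjusted p = 0.0234), the checkpoint gene Bub1b (-0.54 ± 0.11, adjusted p = 0.0147) and Foxm1 (-0.43 ± 0.12, adjusted p = 0.0497). Cdca8 was just outside at -0.43 ± 0.12 (adjusted p = 0.0502). The median log2 fold change was -0.17, against -0.005 over all genes tested, and 30 of 38 were negative, with a range from -0.56 for Ccna2 to 0.25 for Spc25. Both Eed KO libraries lay below both WT libraries in 20 of 38 genes, as for 27.9% of all genes, and above them in 1, Spc25. With 2 libraries a group the calls rest on single libraries: 0 were called without WT 385_1 (4 with an unadjusted p under 0.05) or without WT 385_2 (5), 1 without Eed KO 385_2 and 5 without Eed KO 385_1. Strain labels and the sex pattern differ between the WT and Eed KO organoids and cannot be told apart from genotype.

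In organoid libraries 385_1 and 385_2, Cdk1 was at 144 and 132 CPM in WT and 129 and 106 in Eed KO. Ccna2 was at 279 and 269 in WT and 204 and 169.9 in Eed KO, with no overlap. The kinase gene Plk1 was at 96.7 and 89.4 in WT and 85.8 and 94.3 in Eed KO organoids, which overlap. Foxm1 was at 59.7 and 58.1 CPM in WT and 45.0 and 42.5 in Eed KO, with the 2 groups apart. The passenger genes were at 64.1 and 69.8 CPM in WT and 59.2 and 53.6 in Eed KO for Aurkb, 84.9 and 74.1 CPM in WT and 65.5 and 57.2 in Eed KO for Birc5, and 73.5 and 75.8 CPM in WT and 58.6 and 52.2 in Eed KO for Cdca8. All 3 were below WT in both Eed KO libraries without passing the test. For the checkpoint, Bub1 was at 57.7 and 54.0 CPM in WT and 51.7 and 50.1 in Eed KO and Mad2l1 at 82.5 and 74.6 CPM in WT and 82.7 and 66.6 in Eed KO. Cenpa, the centromere histone, was at 71.0 and 62.5 in WT and 52.4 and 41.7 in Eed KO, the lowest fold change of its role at -0.51. Cenpe was at 89.3 and 67.9 CPM in WT and 82.5 and 84.7 in Eed KO and Spc25 at 24.7 and 25.7 CPM in WT and 32.8 and 27.5 in Eed KO. These 3 kinetochore genes thus differed in sign. Cdc20 was at 117 and 102 CPM in WT and 98.6 and 73.2 in Eed KO, Ube2c at 130.4 and 129 CPM in WT and 114 and 93.4 in Eed KO, and Cdca3 at 92.7 and 78.4 CPM in WT and 104 and 91.6 in Eed KO. Among the motors, Kif11 was at 194 and 170.4 in WT and 163 and 135 in Eed KO, Kif4 at 76.6 and 68.0 CPM in WT and 70.0 and 55.9 in Eed KO, and Tpx2 at 99.0 and 99.8 CPM in WT and 105 and 82.8 in Eed KO. Anln was at 88.5 and 84.1 CPM in WT and 88.6 and 72.0 in Eed KO and Kif23 at 108 and 101 CPM in WT and 121 and 99.4 in Eed KO. Top2a was at 637 and 664 CPM in WT and 573 and 545 in Eed KO, and Mki67 at 641 and 552 in WT and 584 and 615 in Eed KO. Top2a and Mki67, with 2 of the 3 largest falls in crypts, were at -0.22 ± 0.12 and 0.01 ± 0.13 in organoids. Among the genes with organoid values given here, Eed KO 385_2 was the lower of the 2 Eed KO libraries except in Plk1, Cenpe and Mki67.

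Whether the Eed effect differed between crypts and organoids was tested with an interaction term in a fit of the 13 libraries. Of the 38 genes, 21 fell more in crypts than in organoids and 0 less, where 2.99% of all 14761 genes tested had a lower and 1.13% a higher Eed effect in crypts. The median of the difference was -1.21 on the log2 scale, against -0.14 over all genes tested, and all 38 were negative. Prc1, which bundles the central spindle, had the smallest adjusted p (-1.49 ± 0.20, adjusted p = 0.00321), followed by survivin Birc5 (-1.20 ± 0.19, 0.00763). Mki67 had the largest difference and was not called (-1.94 ± 0.55, adjusted p = 0.0775). The roles were spread over the 21: 3 of 4 cyclin genes, 1 of 4 kinase and transcription genes (Melk), 2 of 3 passenger, 2 of 4 checkpoint, 3 of 6 kinetochore, 1 of 3 anaphase partner (Cdca3), 4 of 6 motor and microtubule, 4 of 6 cytokinesis genes and Top2a. The calls, not the direction, depended on the fit. With same-numbered libraries of a tissue and run as a block, 0 of the 38 were called (0.301% of 14628 genes), while 36 had an unadjusted p under 0.05 and the median was -1.21. DESeq2 called 32. The count fell to 11 without the crypt Eed KO 385_1, 12 without WT 385_1 and 8 without WT 385_2, and to 4 without Eed KO organoid 385_1, 3 without WT organoid 385_1 and 1 without WT organoid 385_2. Over all genes the share was 1.57%, 1.91% and 1.18% without these crypts, and below 2.99% without each of these organoids. Within run 385, which holds all organoids, 33 of the 38 were called, against 6.66% of all genes. There WT crypts and Eed KO organoids had the male pattern, and Eed KO crypts and WT organoids the female one. Sex pattern, strain label and time of treatment thus cannot be told apart from tissue in this difference of effects.

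Between WT organoids and WT crypts 3 genes, all cyclins or their kinase, passed the test. This share of the 38 (7.89%) was no more than that of all genes called higher. Cdk1 (0.51 ± 0.15, adjusted p = 0.0296), Ccna2 (0.50 ± 0.14, adjusted p = 0.0174) and Ccnb1 (0.48 ± 0.15, adjusted p = 0.0298) were higher in organoids and 0 were lower, where 9.17% of all genes tested were called higher and 18.9% lower. The median was 0.003, against -0.13 over all genes tested. Without either WT organoid library 0 were called (3 and 4 with an unadjusted p under 0.05), and without the WT crypt 385_2 only 1. Both WT organoids had the female pattern and 2 of the 3 WT crypts the male one. Culture, strain label, sex and time of treatment differ between these groups and cannot be told apart. Averaged over the 38 genes, log2 CPM was 6.47 and 6.56 in WT organoids, 6.23 and 6.45 in Eed KO organoids, and 6.25 to 6.46 in WT crypts. Ezh2 KO crypts averaged 6.04 to 6.37, and Eed KO crypts 4.69 to 5.10, the only group apart from the others.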

How the data were processed

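RNA was measured by strand-specific sequencing of polyadenylated transcripts, per the labels' protocols. The deposited files hold unnormalized read counts for each gene, in 1 table per run whose rows hold an Ensembl identifier, a symbol and a position, per the file headers. The submitters' processing notes list HTSeq, DESeq2, Bowtie 0.12.9, TopHat2 2.0.12 and GRCm38 without saying what each was used for. Strand use in counting was not stated there, and reads of overlapping genes may be mixed.

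Here the tables were joined by identifier (21420 shared genes; 0.196% of counts or less fell outside in each library). No 2 libraries held the same counts (at most 8.51% of genes had equal counts in a pair). Levels are CPM with TMM-adjusted library sizes, and log2 CPM used a prior count of 2. Tests used edgeR 4.0.16 in R 4.3.3 (quasi-likelihood F test, robust, TMM, filter by group with minimum count 10 and total 15, Benjamini-Hochberg adjustment over all genes, threshold 0.05). The 9 crypt libraries were fitted with group and run (14406 genes tested, 5 residual degrees of freedom), the 4 organoids alone (12958, 2) and all 13 for the interaction and for organoids against crypts (14761, 7). All 38 genes passed the filter in each fit. Standard errors came from the F statistic. DESeq2 1.42.0 was an alternative. The scripts were tested on simulated data.

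Same-numbered Eed KO and WT crypts deviated together (r = 0.17, 0.36 and 0.33 for the pairs 385_1, 385_2 and 440_1, all above 0.1), and the pairs share a run. Within run 385, the differences between libraries 385_1 and 385_2 in Eed KO and in WT crypts correlated at r = 0.14. The main fits were not paired. Pairing was used only in the alternative fits with a block, from this check and not from the labels. Coding lengths and GC content came from GENCODE M21, promoters from RefSeq (GRCm38.p6).

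Members and lists were chosen with earlier results of these data known. Every member is accounted for. Library values are printed for the first gene of each role and for its largest and smallest fold change in Eed KO against WT crypts, and from each related list up to 3 genes with the largest change past the threshold are named, with all brakes of CDK1.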

Additional observations from a re-analysis of the deposited data

Results flagged for a closer look

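The Eed effect differed between crypts and organoids, by the interaction term of the 13-library edgeR fit, in 21 genes. The log2 effect in crypts minus that in organoids was Ccnb1 (-1.07), Ccnb2 (-1.31), Ccna2 (-1.03), Melk (-1.45), Aurkb (-1.15), Birc5 (-1.20), Mad2l1 (-0.99), Ttk (-1.55), Ndc80 (-1.17), Nuf2 (-1.22), Spc25 (-1.15), Cdca3 (-1.59), Kif2c (-1.24), Kif4 (-1.79), Tpx2 (-1.20), Nusap1 (-1.75), Anln (-1.56), Racgap1 (-1.22), Prc1 (-1.49), Kif23 (-1.07) and Top2a (-1.84). Each was lower in crypts. Sex pattern, strain label and time of treatment cannot be told apart from tissue in these differences. Of all genes tested, 2.99% had a lower and 1.13% a higher Eed effect in crypts. Adjusted p ran from 0.00321 for Prc1 to 0.0482 for Aurkb. With same-numbered libraries as a block edgeR called 0 of the 38 (36 at an unadjusted p under 0.05), against 0.301% of all genes. DESeq2 without the block called 32, against 5.66% of all genes.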

How the results depend on the processing

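The direction of every called gene held under all alternatives run, with 0 sign changes. In Eed KO against WT crypts, 36 called genes became 19 in run 440 alone, where 1 library a genotype is assumed to vary like the Ezh2 KO group, 38 with DESeq2, 33 with the replicate block and 30 with no run term, and 36 to 38 when each library was left out. The block ended no other call in that comparison, and with the length and GC trend also taken out it gave 36 (7.95% of all genes). Of all genes, 14.2% were called lower with DESeq2, 3.93% with the block and 5.07% with no run term. The share was 5.48% to 13.3% over the libraries left out. In Ezh2 KO against WT crypts, 0 to 1 were called over the libraries left out. Eed KO against Ezh2 KO crypts gave 29 to 35 over these, and 26 with no run term. Of all genes, 4.02% to 8.81% and 7.82% were called lower there. In organoids, where 3 were called, the count was 0 to 5 over libraries left out, 5 with no filter on low counts, 5 with the length and GC trend taken out, 1 with all 13 libraries in 1 fit and 10 with the replicate block. The organoid numbers are 2 pairs that share only a number (r = 0.26). In organoids, 4.63% of all genes were called lower in the main fit and 11.1% with the block. The share was 4.31% with no filter, 6.1% with length and GC taken out and 1.82% in the 13-library fit. The interaction went from 21 to 32 with DESeq2, 34 with length and GC taken out, 33 in run 385 alone, 0 with the replicate block and 1 to 27 over libraries left out. In WT organoids against WT crypts, 0 to 3 were higher and 0 to 1 lower over libraries left out, and lower calls went from 0 to 3 with length and GC taken out and to 1 in run 385 alone. For the interaction, the share of all genes called lower was 2.99% in the main fit and 5.66% with DESeq2. It was 5.08% with length and GC taken out, 6.66% in run 385 alone and 0.301% with the block. For WT organoids against WT crypts it was 18.9% in the main fit, 21.5% with length and GC taken out and 20.5% in run 385 alone. The cause of these shifts was not tested, beyond the fewer samples or genes of some fits. Of the promoters of these genes, in the 100 bases before the start site alone, 20.0% held TTTGAA, 8.571% TTTAAA, 28.571% either and 25.714% either with CCAAT. Of all promoters, 5.765%, 4.393%, 9.711% and 1.766% did in the same window. In 300 bases the shares were 77.143%, 25.714%, 85.714% and 74.286%, against 17.893%, 13.162%, 27.585% and 10.73% of all promoters. No paired fit was possible for the Ezh2 KO comparisons, which share fewer than 2 numbers within a run.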
